A study of Homo sapiens with 9 samples.

Results

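The 10 genes described here encode enzymes that make or break down prostaglandin E2 and receptors that read it: PLA2G4A, PTGS1, PTGS2, PTGES, PTGES2, PTGES3, PTGER2, PTGER4, HPGD and PTGR1. They were taken by symbol from a list of 26485 genes measured by RNA sequencing in MDA-MB-231, a long-established human line of triple-negative breast cancer, and all 10 were found. The cells stably expressed either a nonspecific hairpin (NS shRNA) or 1 of 2 hairpins against ASAH1 (ASAH1 shRNA #1 or ASAH1 shRNA #2), with 3 biological replicates a group and 9 libraries in all. ASAH1 encodes acid ceramidase, the lysosomal enzyme that cleaves ceramide into sphingosine and a fatty acid. Each hairpin was compared with the same 3 NS shRNA libraries, so the comparisons share their controls.

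Prostaglandin E2 synthesis begins when cytosolic phospholipase A2 (PLA2G4A) releases arachidonic acid from membrane phospholipid. The cyclooxygenases PTGS1 and PTGS2 (COX-1 and COX-2) turn it into prostaglandin H2, and the E synthases PTGES, PTGES2 and PTGES3 turn that into prostaglandin E2. PTGER2 and PTGER4 (EP2 and EP4) are receptors that raise cAMP, HPGD oxidizes prostaglandin E2 to its inactive keto form, and PTGR1 reduces that product further. In breast and colon tumors the pathway is best known for high PTGS2 and low HPGD. Ceramide 1-phosphate, a relative of the ceramide that ASAH1 cleaves, is known to bind and activate cytosolic phospholipase A2.

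The promoters of 4 members are shown because these genes had the largest changes described below: PTGES fell with both hairpins, PTGS2 rose with #1, HPGD fell with #1 and PTGER2 fell with #2. Each is the RefSeq window (GRCh38.p14) of 250 bases before and 50 after the start, written 5′ to 3′ on the strand of the gene. Gene spans given further below are from GENCODE, whose outermost start can differ from that of RefSeq. The windows of PTGS2 and HPGD lie inside the GENCODE spans. Capitals mark matches, on either strand, to the 9 short motifs searched. PTGS2 lies on the minus strand and its window is chr1:186680374-186680673. PTGES is on the minus strand, chr9:129752993-129753292. HPGD is on the minus strand, chr4:174522439-174522738. PTGER2 is on the plus strand, chr14:52314062-52314361.
PTGS2: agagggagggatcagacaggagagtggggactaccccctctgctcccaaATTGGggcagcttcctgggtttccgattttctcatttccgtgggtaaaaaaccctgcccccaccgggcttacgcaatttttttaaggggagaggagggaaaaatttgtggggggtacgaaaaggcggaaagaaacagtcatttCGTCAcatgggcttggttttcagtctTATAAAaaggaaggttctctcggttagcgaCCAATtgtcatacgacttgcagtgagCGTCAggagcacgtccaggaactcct
PTGES: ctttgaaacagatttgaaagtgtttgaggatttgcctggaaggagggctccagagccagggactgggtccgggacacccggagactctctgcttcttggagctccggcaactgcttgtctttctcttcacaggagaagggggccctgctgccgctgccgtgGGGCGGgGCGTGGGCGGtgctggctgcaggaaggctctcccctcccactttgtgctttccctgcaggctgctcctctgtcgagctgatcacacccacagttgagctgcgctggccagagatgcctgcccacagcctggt
HPGD: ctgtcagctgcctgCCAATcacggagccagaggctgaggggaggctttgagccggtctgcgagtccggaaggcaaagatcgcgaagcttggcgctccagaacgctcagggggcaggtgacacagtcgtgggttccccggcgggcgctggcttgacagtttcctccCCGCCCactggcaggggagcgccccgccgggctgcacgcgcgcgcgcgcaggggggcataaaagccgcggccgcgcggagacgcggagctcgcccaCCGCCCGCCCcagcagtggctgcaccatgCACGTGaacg
PTGER2: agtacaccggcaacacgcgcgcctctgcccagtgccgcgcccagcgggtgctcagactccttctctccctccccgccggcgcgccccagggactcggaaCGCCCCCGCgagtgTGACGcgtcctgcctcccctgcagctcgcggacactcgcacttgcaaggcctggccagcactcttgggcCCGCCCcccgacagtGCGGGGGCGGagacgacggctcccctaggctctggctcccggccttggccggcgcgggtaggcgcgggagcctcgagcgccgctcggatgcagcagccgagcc

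The PTGS2 window held a TATA box (TATAAA) from -32 to -27 counted from the start, and the short form of the cAMP response element (CGTCA) from -58 to -54 and again from 24 to 28. It held CCAAT at -201 to -197 on the opposite strand and at -2 to 2, and no GC box (GGGCGG). The PTGES window held no TATAAA. It held a GC box from -89 to -84 and another from -78 to -73, the latter overlapping a match to the EGR element (GCGNGGGCG) from -82 to -74. The EGR element also matched the PTGER2 window at -151 to -143 and at -53 to -45, and the PTGR1 window.

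All 10 members had a promoter in the RefSeq table of 35116 windows of the same length. GGGCGG was found in 8 of the 10 (in all but PLA2G4A and PTGS2) and in 45.0% of all windows. TATAAA was in 2 (PTGS1 and PTGS2) against 11.5%, CGTCA in 3 (PTGS2, PTGES3, PTGER2) against 24.6%, and GCGNGGGCG in 3 (PTGES, PTGER2, PTGR1) against 9.43%. CCAAT was in 3 (PTGS2, PTGER4, HPGD) against 34.6%, the antioxidant response element TGACNNNGC in 3 (PTGS1, PTGES2, PTGES3) against 13.3%, and the E-box CACGTG in HPGD only, against 7.26%. The full cAMP element TGACGTCA and the AP-1 element TGACTCA were in 0 of the 10, against 1.85% and 4.95%. A match is a stretch of letters, not a shown binding site. CpG dinucleotides numbered 3 in the window of PLA2G4A, 4 in PTGS1, 10 in PTGES, 12 in PTGS2 and 20 in PTGR1, and 30 to 37 in PTGER4, HPGD, PTGES2, PTGES3 and PTGER2, beside a median of 14 over all windows.

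**Figure D1:**
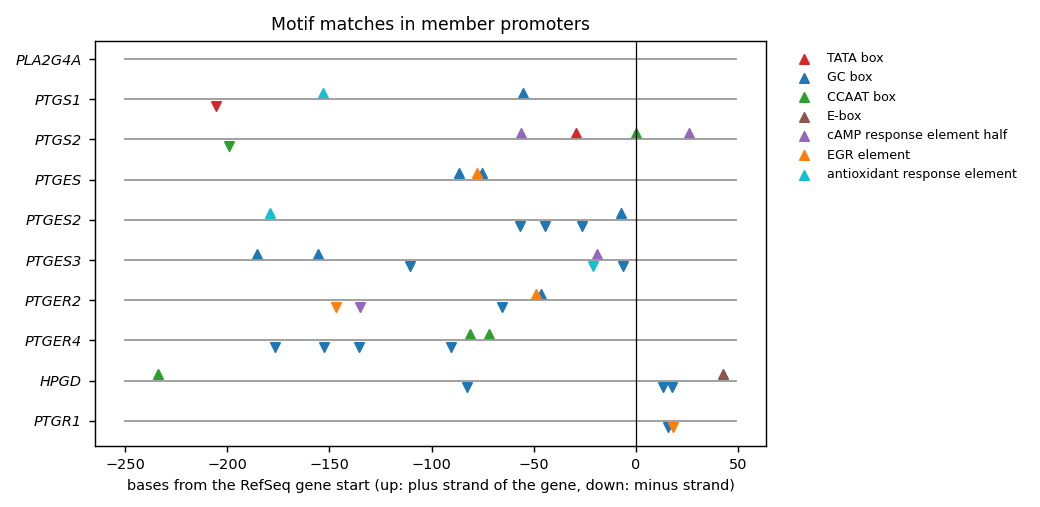
Motif matches in the promoters of the 10 members, by distance in bases from the RefSeq start (x axis). Triangles above a line are on the plus strand of the gene and those below it on the minus strand. PTGS2 has a TATA box just before its start and no GC box, whereas 8 of the 10 members have at least 1 GC box.

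The libraries held 30989598 to 34867548 reads on genes with NS shRNA, 23806003 to 39791698 with ASAH1 shRNA #1 and 35653318 to 49659106 with ASAH1 shRNA #2. The targeted gene fell in every knockdown library. ASAH1 had 4436, 4512 and 4518 normalized counts with NS shRNA and 1268, 1365 and 1348 with #1 (log2 fold change -1.76). In the table of #2 it had 4787, 4898 and 4871 with NS shRNA and 779.6, 807 and 762 with #2 (-2.63), and it was lower with #2 than with #1 (log2 ratio -0.88, edgeR adjusted p = 6.82e-08). VIM, CD44, AXL, CAV1 and EGFR, expected to be high in this mesenchymal line, had at least 2667 reads in every library. ESR1 and PGR had 0 to 2. Some epithelial genes expected to be low were present, EPCAM at 652 to 1773 reads, CLDN3 at 81 to 269 and CLDN4 at 5591 to 13508. Of other cell types' markers PTPRC had 1 to 8 reads, while CD68 had 827 to 3483, PECAM1 39 to 102, KRT5 45 to 299 and PMEL 33 to 101. CD68 changed by 0.29 on the log2 scale with #1 and by -1.38 with #2, EGFR by 1.18 and 1.29, and CLDN3 by -1.06 and -1.29. With #1, 10 of the 12 markers tested were called (5 higher and 5 lower), beside 66.1% of all genes tested. With #2, 10 of the 12 were called (4 higher and 6 lower), beside 66.9%. The part of these markers in the results below was not tested.

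The level of each member in the NS shRNA cells was compared per length, as RPKM, the reads per kilobase of the GENCODE canonical transcript scaled to the reads on genes of the library. PTGES3 was highest at an RPKM of 191 ± 4.55 (SD, n = 3 for this and each level that follows). PTGES2 was at 84.7 ± 7.25, PTGES at 70.4 ± 3.59 and PTGR1 at 48.9 ± 2.29. All 4 were far above the receptors and cyclooxygenases, with PTGER4 at 2.33 ± 0.282, PTGS1 at 1.10 ± 0.10, HPGD at 0.742 ± 0.122 and PTGER2 at 0.649 ± 0.156. PTGS2 at 0.108 ± 0.0180 and PLA2G4A at 0.0768 ± 0.0505 were lowest. Neighbors in this order did not overlap between libraries, except HPGD with PTGER2 and PTGS2 with PLA2G4A. With the merged length of all annotated exons instead, PTGES (65.2) stood above PTGES2 (22.3) and PTGER2 above HPGD, and the order was otherwise the same. PTGS2 was counted from few reads, 13 to 18 a library with NS shRNA. RPKM is scaled to all reads on genes, whereas the fold changes below use the size factors of the deposited tables, so the 2 scales can differ in the size of a change.

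**Figure D2:**
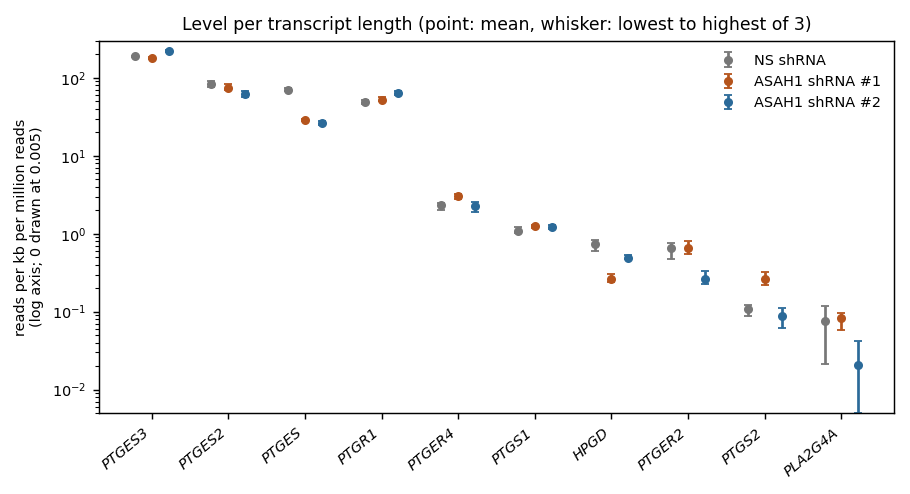
Level of each member in RPKM over its canonical transcript (log axis) in the 3 groups. Points are means and whiskers run from the lowest to the highest of 3 libraries. PTGES3, PTGES2, PTGES and PTGR1 lie above 20 in each group, and PTGS2 and PLA2G4A lie below 0.4.

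To ask which members changed with ASAH1 knockdown, log2(normalized count + 1) was tested with limma over genes whose mean reached 10, and a gene was called at a Benjamini-Hochberg adjusted p below 0.05. Of the 10 members 9 were tested in each comparison. PLA2G4A was too low, and none of the 9 passed the filter through 1 group alone. With ASAH1 shRNA #1, 2 members rose (PTGS2 and PTGER4) and 3 fell (PTGES, HPGD and PTGES3), 5 of 9, beside 66.1% of 14341 genes tested (32.8% higher and 33.3% lower). With ASAH1 shRNA #2, 3 rose (PTGES3, PTGR1 and PTGS1) and 3 fell (PTGES, PTGER2 and PTGES2), 6 of 9, beside 66.9% of 14250 genes (33.5% higher and 33.4% lower). These shares were near those of all genes, so the counts do not set the pathway apart. The median size of the log2 fold change, sign left out, was 0.20 over the members and 0.37 over all genes with #1, and 0.35 and 0.40 with #2. PTGES was the 1 member called in the same direction with both hairpins, and PTGES3 was called in opposite directions. The share of all genes called in the same direction with both was not computed, so this count has nothing to be set against. Unless an alternative is named, fold changes against NS shRNA below are on the log2(value + 1) scale. This scale understates the change of the lowest genes. Log2 ratios between the hairpins are from edgeR on reads recovered from the normalized counts.

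**Figure D3:**
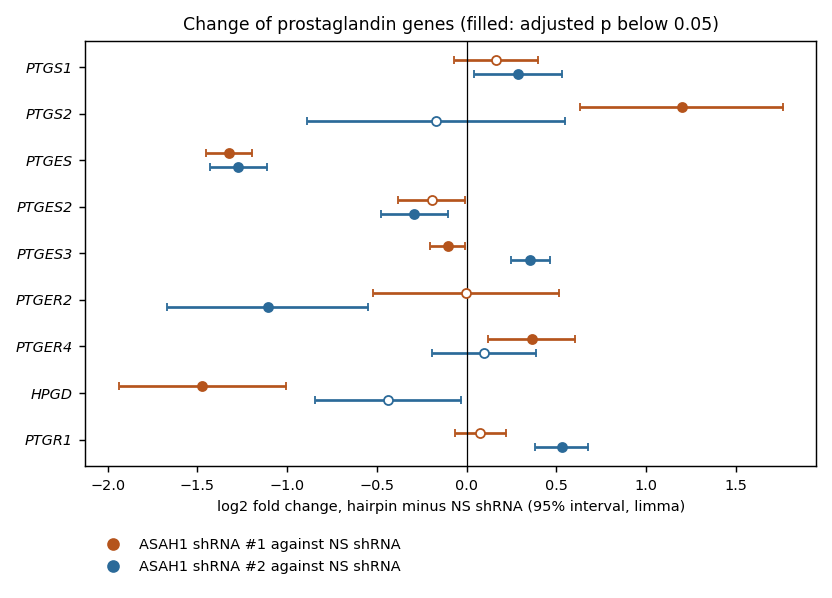
Log2 fold change of the 9 tested members (x axis) with ASAH1 shRNA #1 (brown) and #2 (blue) against NS shRNA, with the 95% interval of the limma fit. Filled points have an adjusted p below 0.05. PTGES sits near -1.3 with both hairpins. The other filled points are PTGS2, PTGER4, HPGD and PTGES3 with #1, and PTGS1, PTGES2, PTGES3, PTGER2 and PTGR1 with #2.

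PTGES, which encodes the microsomal, inducible prostaglandin E synthase that works downstream of PTGS2, was downregulated by each hairpin. In the table of #1 it had 4226, 3926 and 3803 normalized counts with NS shRNA and 1564, 1546 and 1661 with #1. In the table of #2 it had 4560.1, 4261 and 4100.3 with NS shRNA and 1820.1, 1633 and 1898 with #2. Every knockdown library was below every NS library. In such bulk libraries, fewer cells with a transcript and less RNA per cell cannot be told apart. The fall was 2.50-fold with #1 (log2 fold change -1.32, SE 0.057, limma adjusted p = 1.03e-07) and 2.42-fold with #2 (-1.27, SE 0.071, limma adjusted p = 1.78e-07). Set against each other in 1 fit, the hairpins differed by a log2 ratio of 0.046 (#2 minus #1, edgeR adjusted p = 0.564), and this ratio lay between 0.0014 and 0.11 under the alternatives tried. The gene lies on the minus strand of chromosome 9 (hg38, chr9:129738331-129753042).

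The other 2 E synthases moved less. PTGES2, the membrane-associated synthase, had 5126, 4781 and 4281 normalized counts with NS shRNA and 3917, 3475 and 4197 with #2, a fall of 1.22-fold in which the groups did not overlap (log2 fold change -0.29, SE 0.084, limma adjusted p = 0.0103). With #1 it had 3518, 3695 and 4249.9 against 4750.4, 4404 and 3971, and the groups overlapped (-0.20, 95% interval -0.38 to -0.0082, limma adjusted p = 0.0627). The call with #1 was made without NS replicate 3 (limma adjusted p = 0.0105) or without #1 replicate 3 (0.00820). PTGES3 is the cytosolic synthase and is also known as p23, a co-chaperone of HSP90. It rose with #2, from 12860.5, 12345 and 12709 normalized counts to 15516, 16379 and 16609, with every #2 library above every NS library (log2 fold change 0.35, SE 0.050, limma adjusted p = 0.000107). With #1 it was slightly lower, 10785, 10646 and 11137 against 11918, 11372 and 11787, and the groups did not overlap (-0.11, SE 0.043, limma adjusted p = 0.0489). That small fall lost its call in 11 of 14 alternatives, including each left-out library, with limma adjusted p from 0.0507 to 0.180 when 1 library was left out. PTGES3 has processed pseudogenes, so the share of its reads that could not be placed is uncertain. Between the hairpins its log2 ratio was 0.46 (edgeR adjusted p = 2.97e-06).

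Of the cyclooxygenases, PTGS2 was called with #1 and PTGS1 with #2. PTGS2, the inducible form, had 17.8, 12.8 and 16.6 normalized counts with NS shRNA and 46.8, 32.1 and 33.6 with #1. All 3 #1 libraries were above all 3 NS libraries, a 2.29-fold rise in the fit (log2 fold change 1.20, SE 0.25, 95% interval 0.63 to 1.76, limma adjusted p = 0.00221). With #2 it had 10.8, 15.5 and 19.4 against 19.2, 13.8 and 17.9, and the groups overlapped (-0.17, 95% interval -0.89 to 0.55, limma adjusted p = 0.658). The reads behind these values were 35, 40 and 35 with #1, 10, 16 and 25 with #2, and 17, 13 and 18 with NS shRNA. The hairpins differed from each other by a log2 ratio of -1.36 (edgeR adjusted p = 0.00101). The gene is at chr1:186671791-186680922 on the minus strand, and PLA2G4A lies on the same chromosome at chr1:186828949-186988981.

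PTGS1, the cyclooxygenase that most tissues express steadily, had 182, 214 and 183 normalized counts with NS shRNA and 237, 221 and 248 with #2. The groups did not overlap (log2 fold change 0.29, SE 0.11, limma adjusted p = 0.0400). This call was lost in 8 of 14 alternatives, among them DESeq2 (adjusted p = 0.0896) and the fits without NS replicate 1, NS replicate 3, #2 replicate 1 or #2 replicate 3 (limma adjusted p from 0.0962 to 0.115). With #1 it had 201, 209.6 and 188 against 168, 197 and 169.9, with overlap (0.16, 95% interval -0.072 to 0.40, limma adjusted p = 0.196). The hairpins were not told apart (log2 ratio 0.12, edgeR adjusted p = 0.317). PLA2G4A, the phospholipase at the head of the pathway, had 8, 2 and 12 reads with NS shRNA, 4, 11 and 9 with #1 and 2, 0 and 6 with #2. The groups overlapped, and with no filter on low genes its log2 fold change was 0.28 with #1 (limma adjusted p = 0.684) and -1.50 with #2 (limma adjusted p = 0.0974). A change was not detectable at this depth.

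Of the 2 receptors, PTGER2 was called with #2 and PTGER4 with #1. PTGER2, encoding EP2, had 40.7, 60.7 and 65.7 normalized counts with NS shRNA and 31.3, 22.4 and 21.7 with #2. All #2 libraries were below all NS libraries, a 2.16-fold fall (log2 fold change -1.11, SE 0.25, limma adjusted p = 0.00270). With #1 the values of 42.8, 63.5 and 47.1 lay among those of NS shRNA (37.7, 55.9 and 60.9), with a log2 fold change of -0.0024 and a 95% interval of -0.52 to 0.52. The hairpins differed by a log2 ratio of -1.18 (edgeR adjusted p = 0.00173). The gene is at chr14:52314305-52328598 on the plus strand.

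PTGER4, encoding EP4, had 223, 279 and 272 normalized counts with NS shRNA and 353, 333 and 307 with #1, with no overlap (log2 fold change 0.36, SE 0.11, limma adjusted p = 0.0140). It was called under all 14 alternatives, with adjusted p from 0.0109 to 0.0495. With #2 it had 302, 338 and 254 against 241, 303 and 294, and the groups overlapped (0.094, 95% interval -0.20 to 0.38, limma adjusted p = 0.546). The difference between the hairpins did not pass the test (log2 ratio -0.27, edgeR adjusted p = 0.0680), except without #2 replicate 2 (-0.37, edgeR adjusted p = 0.0217). The rise with #1 was thus not shown to be particular to that hairpin.

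HPGD, whose product 15-hydroxyprostaglandin dehydrogenase carries out the rate-limiting inactivation step, had 51.3, 70.7 and 66.5 normalized counts with NS shRNA and 25.4, 20.1 and 20.2 with #1. All #1 libraries were below all NS libraries, a 2.78-fold fall (log2 fold change -1.47, SE 0.21, limma adjusted p = 0.000175). With #2 it had 47.4, 47.6 and 53.5 against 55.3, 76.7 and 71.7. These groups did not overlap either, and the test was just missed (-0.44, SE 0.18, 95% interval -0.84 to -0.029, limma adjusted p = 0.0560). It was passed with upper quartile scaling (adjusted p = 0.0379), with edgeR (0.0495) and without NS replicate 1 (0.0229). HPGD was higher with #2 than with #1 (log2 ratio 1.08, edgeR adjusted p = 0.000739). The gene is at chr4:174490175-174523154 on the minus strand.

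PTGR1, the reductase that acts after HPGD and also inactivates leukotriene B4, had 2715, 2878 and 2596 normalized counts with NS shRNA and 3902, 3693 and 4225 with #2. All #2 libraries were above all NS libraries (log2 fold change 0.53, SE 0.067, limma adjusted p = 4.97e-05). With #1 it had 2558, 2554 and 2878 against 2516, 2652 and 2408, with overlap (0.076, 95% interval -0.067 to 0.22, limma adjusted p = 0.317). Its log2 ratio between the hairpins was 0.45 (edgeR adjusted p = 0.000157).

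**Figure D4:**
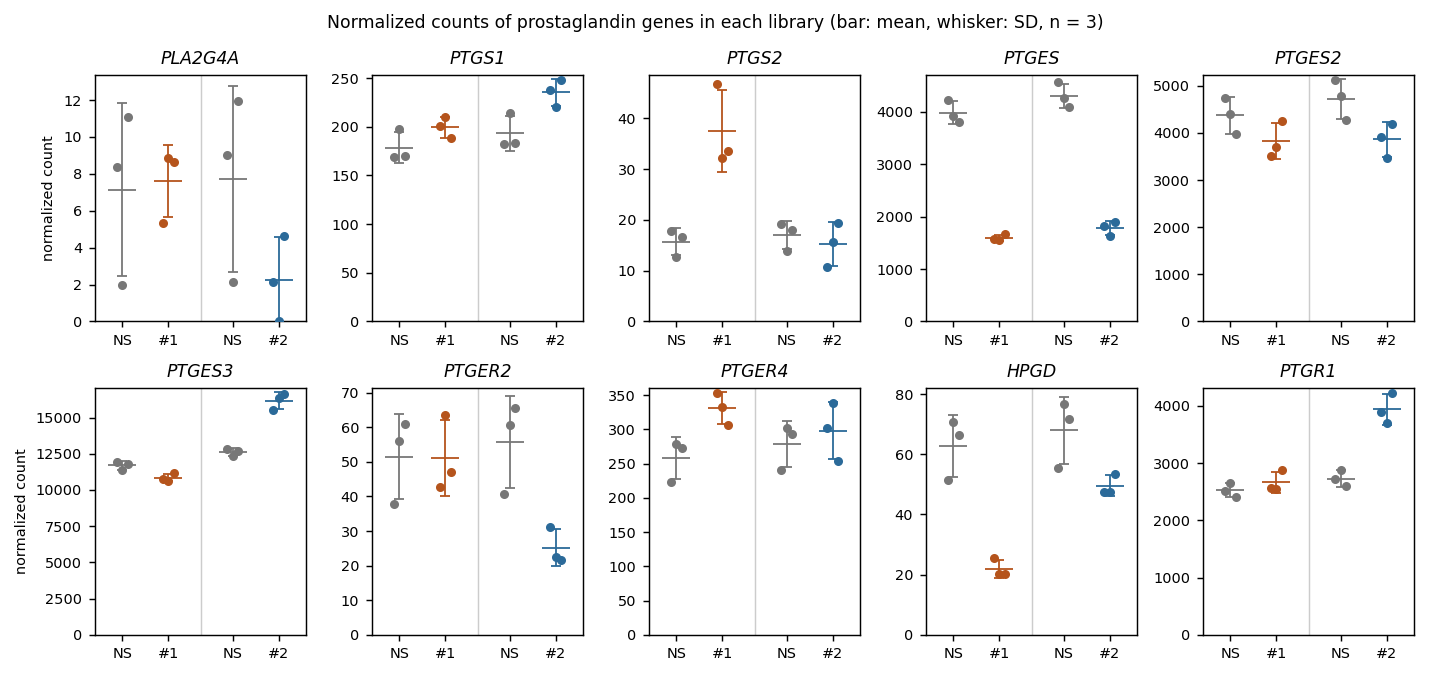
Normalized counts (y axis, linear and from 0) of each member in every library, with NS shRNA (gray) beside #1 (brown) and, in the table scaled for #2, beside #2 (blue). Bars are means and whiskers SD of 3 libraries. PTGES is low in all 6 knockdown libraries, PTGS2 is high in the 3 libraries of #1 alone, and PTGER2 is low in the 3 of #2 alone.

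Tested against each other, the 2 hairpins differed in 5 of the 9 members, beside 63.3% of 14714 genes (31.1% higher with #2 and 32.1% lower). HPGD, PTGES3 and PTGR1 were higher with #2, and PTGS2 and PTGER2 were lower. The largest of these ratios were those of PTGS2 and PTGER2. All 5 kept their call in the 9 alternatives run for this contrast. The groups differed in ASAH1 itself, as given above.

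The other genes of the pathway were taken from a list of 40, of which 26 were tested in each comparison. With #1, 14 were called, 4 higher and 10 lower. With #2, 21 were called, 12 higher and 9 lower. Against the shares of all genes given above, this was 14 of 26 and 21 of 26.

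Of the 8 listed phospholipases A2, 5 were tested. PLA2G15, a lysosomal phospholipase, fell with both hairpins, from 1496 ± 98.2 to 1201 ± 41.9 normalized counts with #1 and from 1617 ± 111 to 968 ± 58.6 with #2 (SD, n = 3). The log2 fold changes were -0.32 (limma adjusted p = 0.00180) and -0.74 (1.08e-05). PLA2G15 was lower with #2 than with #1 (log2 ratio -0.43, edgeR adjusted p = 0.000185). PLA2G4C, a calcium-independent relative of PLA2G4A, was singled out after its values were seen. It had 109.9, 109 and 88.6 normalized counts with NS shRNA and 619, 606 and 643 with #1, a 6.05-fold rise (log2 fold change 2.60, SE 0.10, limma adjusted p = 6.74e-08). With #2 it had 143, 129 and 128 against 119, 118 and 95.6, and the change of 0.27 did not pass the test (limma adjusted p = 0.101). Between the hairpins its log2 ratio was -2.34 (edgeR adjusted p = 5.04e-09). The 3 other tested phospholipases were each called with 1 hairpin. PLA2G16 changed by -0.71 with #1 (limma adjusted p = 0.000355) and by -0.20 with #2 (0.138). PLA2G12A, a secreted form, changed by 0.70 with #2 (limma adjusted p = 3.19e-06) and by -0.071 with #1 (0.292). PLA2G6, a calcium-independent form, changed by -0.61 with #2 (limma adjusted p = 0.00193) and by -0.19 with #1 (0.216). Each of the 3 differed between the hairpins, with log2 ratios of 0.51, 0.77 and -0.43 (edgeR adjusted p = 0.00296, 1.43e-07 and 0.0121). PLA2G4B had 0 to 5 reads a library, and PLA2G2A and PLA2G10 had 0 in all 9.

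Of the 5 other terminal synthases and reductases tested, 3 moved in opposite directions with the hairpins and thromboxane synthase fell with both. The shares of all genes called in opposite directions, or in the same direction, were not computed, so these counts do not set the synthases apart. TBXAS1, which makes thromboxane A2, fell with both, from 142 ± 15.1 to 104 ± 15.8 normalized counts with #1 (log2 fold change -0.45, limma adjusted p = 0.0206) and from 154 ± 16.5 to 66.8 ± 9.88 with #2 (-1.20, limma adjusted p = 6.09e-05). It was lower with #2 than with #1 (log2 ratio -0.78, edgeR adjusted p = 0.00162). AKR1C3, a prostaglandin F synthase that also reduces steroids, had 6024, 5983 and 5392 normalized counts with NS shRNA and 1972, 1958 and 2173 with #1, and 6500.3, 6495 and 5814 against 9370.0, 9317 and 9583 with #2. It therefore fell with #1 (-1.51, limma adjusted p = 8.26e-08) and rose with #2 (0.59, limma adjusted p = 7.78e-06), and the ratio between the hairpins was 2.09 on the log2 scale (edgeR adjusted p = 3.74e-10). Its reads share sequence with AKR1C1 and AKR1C2, so its count is uncertain. AKR1B1, an aldose reductase with prostaglandin F synthase activity, changed by -0.38 with #1 (limma adjusted p = 0.000442) and 0.40 with #2 (0.000354). FAM213B, a prostamide and prostaglandin F synthase, changed by -0.62 (limma adjusted p = 5.70e-06) and 0.51 (3.23e-05). CBR1, a carbonyl reductase that acts on prostaglandin E2, was called with neither (-0.18, limma adjusted p = 0.0651, and 0.0042, limma adjusted p = 0.961). The synthases of prostaglandin D2 and prostacyclin were at or near 0: HPGDS had 0 reads in every library, PTGDS at most 1 and PTGIS at most 2.

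Of the other prostanoid receptors only TBXA2R, the thromboxane receptor, passed the filter of the limma fits. It had 199, 153 and 146 normalized counts with NS shRNA and 81.6, 83.5 and 99.9 with #1 (log2 fold change -0.89, limma adjusted p = 0.000558). With #2 it had 62.5, 56.4 and 72.9 against 215, 166 and 157 (-1.47, limma adjusted p = 1.92e-05). Between the hairpins its log2 ratio was -0.58 (edgeR adjusted p = 0.0127). Every knockdown library was below every NS library. The receptors for prostaglandins D2, F2 alpha and I2 and the other E receptors were too low for these fits. Of them only PTGFR, the F2 alpha receptor, was tested between the hairpins (log2 ratio 0.80, edgeR adjusted p = 0.419). PTGDR had 0 reads in all 9 libraries, PTGIR 0 to 2, PTGDR2 0 to 8, PTGER3 0 to 9, PTGER1 1 to 15 and PTGFR 0 to 18. Of the 4 E receptors, PTGER2 and PTGER4 were thus the ones with enough reads.

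Beside HPGD and PTGR1, the export and breakdown genes tested were ABCC4, PTGR2 and ZADH2. Each was called with #2, as were 66.9% of all genes tested. ABCC4, which exports prostaglandin E2, rose by 0.57 (limma adjusted p = 1.85e-05) against -0.060 with #1 (limma adjusted p = 0.405). PTGR2, a reductase related in function to PTGR1, rose by 0.32 (limma adjusted p = 0.00231) against 0.022 with #1 (0.800), and ZADH2 fell by 0.18 on the log2 scale (limma adjusted p = 0.0356) against a change of 0.072 with #1 (0.294). Their log2 ratios between the hairpins were 0.63, 0.29 and -0.26 (edgeR adjusted p = 2.58e-06, 0.00193 and 0.00110). The uptake carrier SLCO2A1 had 0 or 1 read.

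In the leukotriene branch, which uses the same arachidonic acid, ALOX5 (5-lipoxygenase) fell with both hairpins, from 483 ± 15.7 to 242 ± 5.21 normalized counts with #1 (-0.99, limma adjusted p = 2.89e-06) and from 522 ± 15.1 to 223 ± 11.6 with #2 (-1.22, limma adjusted p = 8.75e-07). ALOX5 was lower with #2 than with #1 (log2 ratio -0.24, edgeR adjusted p = 0.0176). With #2, ALOX5AP changed by -1.12 (limma adjusted p = 0.000821), LTA4H by 0.60 (1.43e-05), LTC4S by -2.06 (0.00105) and LTB4R by -0.17 (0.0329). With #1 the same genes changed by -0.024 (limma adjusted p = 0.888), 0.026 (0.697), -1.04 (0.0657) and -0.086 (0.297). The hairpins differed for ALOX5AP, LTA4H and LTC4S (log2 ratios -1.08, 0.57 and -1.35, edgeR adjusted p = 0.000459, 7.54e-06 and 0.0424), and for LTB4R the test was not passed (-0.092, edgeR adjusted p = 0.229). LTC4S rested on 3 to 23 reads a library. Of the genes tied to ceramide 1-phosphate, ceramide kinase (CERK) and its transfer protein (CPTP) fell with #1, by 0.81 and 0.16 on the log2 scale (limma adjusted p = 4.33e-06 and 0.0209). Both rose with #2, by 0.20 and 0.31 (limma adjusted p = 0.0194 and 0.00501).

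Of 5 genes known to act on PTGS2 transcription or mRNA decay, 3 rose with #1 and 3, not all the same, with #2. Of all genes tested, 32.8% were called higher with #1 and 33.5% with #2. CREB1, a transcription factor, was called with neither (0.087 with #1, limma adjusted p = 0.234, and 0.15 with #2, limma adjusted p = 0.0564). CEBPB, a transcription factor of the PTGS2 promoter, rose by 0.82 with #1 (limma adjusted p = 1.59e-05) and by 0.32 with #2 (0.0133). ZFP36L1, a member of the family of proteins that destabilize AU-rich mRNAs, rose by 1.33 with #1 (limma adjusted p = 3.70e-07) and by 0.32 with #2 (0.00305). Its relative ZFP36 rose with #1 by 0.84 (limma adjusted p = 1.55e-05) and changed by 0.19 with #2 (limma adjusted p = 0.0765), and the mRNA-stabilizing ELAVL1 rose with #2 by 0.14 (limma adjusted p = 0.0336) and changed by 0.062 with #1 (limma adjusted p = 0.248). CEBPB, ZFP36 and ZFP36L1 were lower with #2 than with #1 (log2 ratios -0.51, -0.66 and -1.02, edgeR adjusted p = 0.000948, 9.52e-06 and 4.76e-07).

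**Figure D5:**
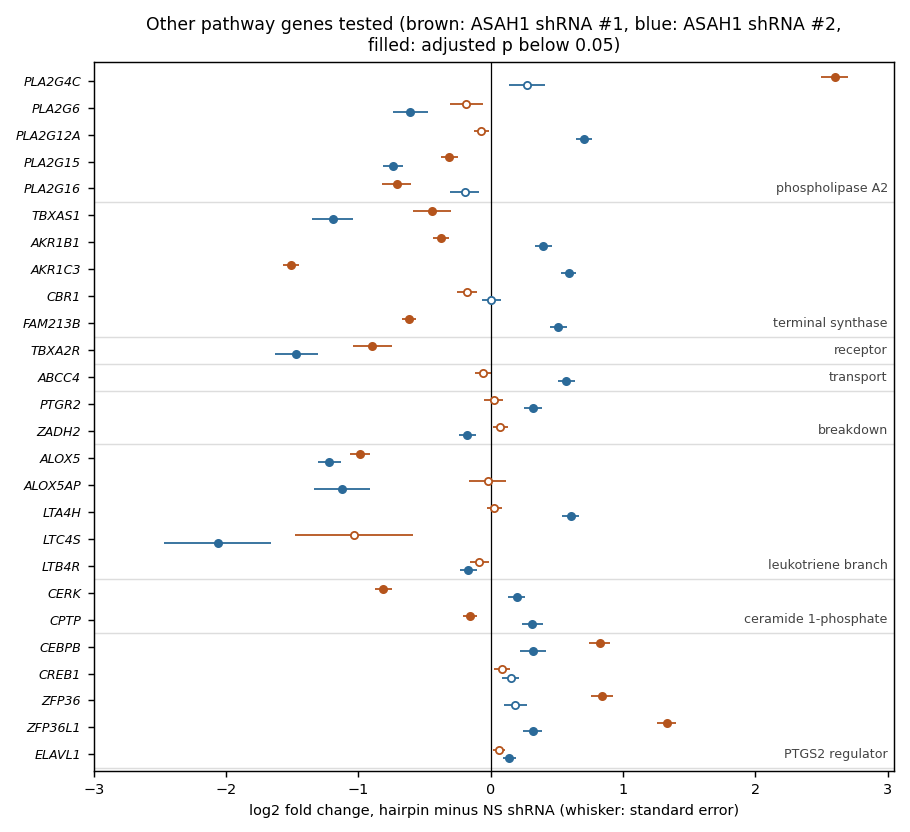
Log2 fold change (x axis) of the 26 other pathway genes tested, with ASAH1 shRNA #1 (brown) and #2 (blue) against NS shRNA. Whiskers are standard errors and filled points have an adjusted p below 0.05. TBXA2R, ALOX5, TBXAS1 and PLA2G15 lie below 0 with both hairpins, and AKR1C3, AKR1B1, FAM213B, CERK and CPTP lie on opposite sides.

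The genes whose pair of fold changes lay closest to that of a member were found among 11439 genes whose mean reached 100 in each table, by the distance between the pairs over the 2 comparisons. Nearest to PTGS2 were COL17A1, with log2 fold changes of 1.17 with #1 and -0.20 with #2, EVI2A with 1.15 and -0.17, and RMND1 with 1.25 and -0.20. Nearest to PTGES were ENDOD1 with -1.34 and -1.24, HVCN1 with -1.30 and -1.33, and TCIRG1 with -1.27 and -1.24. The distances were 0.035 to 0.059 for PTGS2 and 0.041 to 0.066 for PTGES, and PTGS2's own pair carries standard errors of 0.25 and 0.32.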

How the data were processed

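RNA of MDA-MB-231 cells expressing NS shRNA, ASAH1 shRNA #1 or ASAH1 shRNA #2 (3 replicates each) was sequenced by the authors as single-end reads from strand-specific libraries. The methods describe oligo-dT selection, while the series design names ribosomal RNA depletion. Per the labels and methods, reads were trimmed with Trimmomatic 0.36, aligned to hg38 with STAR 2.7.1a, counted on UCSC genes by strand with htseq-count and normalized with DESeq2 1.28. Another methods paragraph names Bowtie2, RSEM and edgeR, and the deposited values fit the former.

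The deposited signal is a normalized count, that is, reads divided by 1 size factor per library, in 1 table per hairpin, each with the same NS libraries. Dividing by the steps between low values gave whole reads for 100% of values (tolerance 0.01). The authors' fold and p columns were not used. 28 symbols had turned into dates.

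Each hairpin was tested against NS shRNA in its own table with limma 3.58.1 (trend, two-sided) on log2(value + 1) over genes whose mean reached 10, with Benjamini-Hochberg adjustment over all genes tested. The hairpins were compared with edgeR 4.0.16 (TMM, filterByExpr, quasi-likelihood) on recovered reads of all 9 libraries. Alternatives were DESeq2 1.42.0, edgeR, pseudocounts, filters, upper quartile scaling, a replicate block and each library left out. The fits were tried on simulated counts with few changed genes and the same added spread for every gene, unlike these data. False calls made up 5.26% (#1) and 5.18% (#2) of the simulated calls with limma, and 6.95% and 10.5% with DESeq2. With edgeR they made up 4.71% and 5.67%, and 2.67% between the hairpins. With 3 against 3 libraries an exact permutation test of 1 gene cannot go below p = 0.1. The methods call the replicates biological without saying what was separate, so p-values set each difference against the spread between these samples only.

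The members, the list of other pathway genes and the tests were chosen with earlier results of these data known. Named genes were ASAH1, all members, the other receptors and terminal synthases, pathway genes whose mean reached 100 and that were called in the same direction with both hairpins, and the 3 genes nearest to PTGS2 and to PTGES; other pathway genes named here were picked after their values were seen. Transcript lengths and gene spans came from GENCODE and promoters from RefSeq.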

Additional observations from a re-analysis of the deposited data

Results flagged for a closer look

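Expression differed between the cells of the 2 ASAH1 hairpins for 5 of the 9 members tested. The edgeR test set #2 against #1 in 1 fit of all 9 libraries. PTGS2 had a log2 ratio of -1.36 (adjusted p = 0.00101), PTGER2 of -1.18 (0.00173), HPGD of 1.08 (0.000739), PTGES3 of 0.46 (2.97e-06) and PTGR1 of 0.45 (0.000157). All 3 libraries of a hairpin lay on the same side of all 3 of the other for each of these genes, as RPKM. The hairpins also differed in 63.3% of all genes tested and in the remaining ASAH1 transcript, and the part of either in these ratios was not tested.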

How the results depend on the processing

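Of 329 alternative values for single members, 295 kept their direction and their side of the threshold. Of 65 alternative list counts, 64 stayed within 1.5 times the reported count, members called with #1 moving from 5 to 4 under edgeR, DESeq2 and others. The calls of PTGES with both hairpins, of PTGS2, HPGD and PTGER4 with #1, and of PTGER2, PTGES2, PTGES3 and PTGR1 with #2 held in every alternative that tested the gene. The number of members called with #1 fell from 5 to 3 with a mean of at least 50, a filter that leaves out PTGS2 and HPGD. Reversed values were near 0: PTGER2 with #1 was 0.0072 with upper quartile scaling, 0.0044 with edgeR and -0.21 to 0.13 with 1 library left out; with 1 left out, PTGS2 with #2 ranged from -0.35 to 0.043 and PTGER4 with #2 from -0.0092 to 0.20. The fall of PTGES3 with #1 was lost with no filter (adjusted p = 0.0873), upper quartile scaling (0.0694), edgeR (0.0552) and DESeq2 (0.0656), and the rise of PTGS1 with #2 with no filter (0.0729), upper quartile scaling (0.0733) and DESeq2 (0.0896). The cause was not tested. Same-numbered libraries deviated in opposite directions (r from -0.32 to -0.098). Deviations from a mean of 3 are tied to each other, so these values cannot decide whether the numbers pair the libraries. With the replicate block 4 members were called with #1, 5 with #2 and 5 between hairpins, PTGES3 with #1 (adjusted p = 0.159) and PTGS1 with #2 (0.0960) losing their call. Depth limits PTGS2, PTGER2, HPGD and PLA2G4A, which had at most 79 reads in any library.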
